A study of Mus musculus with 18 samples.

Results

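The signalling lymphocytic activation molecule (SLAM) receptors studied here were Slamf1, Slamf6, Slamf7, Ly9, Cd48 and Cd84, and with them Sh2d1a, which encodes the adaptor SAP. These 7 genes were taken by symbol from 52506 Ensembl genes that 3 tables of mouse RNA-seq counts have in common, and all 7 were listed in every table. The cells were double negative T (DNT) cells, T cells without CD4 and CD8, converted in culture from CD4+ T cells of wild type spleen and lymph node. The study asked how purinergic ligands change these cells. All 18 libraries came from cells given anti-CD3/CD28 antibody. Each table holds 2 groups of 3 libraries. The first holds WTATPgs, with 400 µM ATPgs, an ATP analogue that is not hydrolysed, for 6 h, and WT, without it. The second holds ADO, with 400 µM adenosine for 6 h, and DNT, without it. The third holds RA, with the same adenosine and 250 nM of a compound that blocks A2aR, a receptor for adenosine, and R, with the inhibitor and no adenosine. The labels do not say that replicates came from separate cultures or animals, so each p-value measures the spread between these libraries, which may be technical.

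SLAM receptors are immunoglobulin-like proteins of immune cells. Most of them bind a copy of themselves on the neighbouring cell, so that T cells, B cells and other haematopoietic cells can signal to each other through the same molecule. Their tails carry tyrosine motifs to which the small SH2 domain protein SAP binds, and SAP brings in the kinase Fyn. Where SAP is missing, phosphatases bind the same motifs and the receptors turn inhibitory. In mice SAP is needed for stable contact between helper T cells and B cells and for the development of natural killer T cells, and loss of SAP in humans causes X-linked lymphoproliferative disease.

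The 6 receptor genes lie beside each other on chromosome 1 (GRCm38, GENCODE M21 gene spans). Slamf1 (ENSMUSG00000015316), whose product CD150 binds itself, spans chr1:171767127-171801184 on the plus strand. Slamf6 (ENSMUSG00000015314), encoding Ly108, spans chr1:171917515-171953170 on the plus strand. Cd84 (ENSMUSG00000038147) spans chr1:171839697-171890718, also on the plus strand. Cd48 (ENSMUSG00000015355), encoding a receptor held by a lipid anchor with no tail of its own, spans chr1:171682009-171705258 on the plus strand. Slamf7 (ENSMUSG00000038179), encoding CRACC, spans chr1:171632403-171653035 on the minus strand. Ly9 (ENSMUSG00000004707), encoding CD229, spans chr1:171588624-171607410 on the minus strand. Sh2d1a (ENSMUSG00000005696) lies on the X chromosome at chrX:42502453-42529330, plus strand.

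RefSeq start site windows (GRCm38.p6, 250 bases before to 50 after the start) matched 5 of the 7 members, namely Slamf1, Slamf6, Slamf7, Cd48 and Cd84. The windows of Slamf1, Slamf6 and Slamf7 are shown because these 3 genes had the largest changes of the members with adenosine and also changed with ATPgs. Capitals mark matches, on either strand, to the AP-1 site TGANTCA or to GGAAA, the core bound by NFAT, both being factors that T cell receptor signals switch on. The searches also covered TGACGTCA, the full cAMP response element, and TGACG, its core, since A2aR raises cAMP.
Slamf1: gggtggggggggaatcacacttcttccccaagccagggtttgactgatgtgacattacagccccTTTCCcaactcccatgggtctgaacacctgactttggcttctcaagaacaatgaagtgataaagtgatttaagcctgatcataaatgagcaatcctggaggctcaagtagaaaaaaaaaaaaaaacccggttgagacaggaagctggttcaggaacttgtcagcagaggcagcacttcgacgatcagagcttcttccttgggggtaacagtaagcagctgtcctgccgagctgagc
Slamf6: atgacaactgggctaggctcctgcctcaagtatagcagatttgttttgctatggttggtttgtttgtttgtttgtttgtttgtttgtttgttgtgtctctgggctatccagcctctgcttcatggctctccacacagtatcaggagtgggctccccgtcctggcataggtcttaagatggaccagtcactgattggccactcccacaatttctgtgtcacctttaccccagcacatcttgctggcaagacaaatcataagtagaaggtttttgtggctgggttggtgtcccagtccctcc
Slamf7: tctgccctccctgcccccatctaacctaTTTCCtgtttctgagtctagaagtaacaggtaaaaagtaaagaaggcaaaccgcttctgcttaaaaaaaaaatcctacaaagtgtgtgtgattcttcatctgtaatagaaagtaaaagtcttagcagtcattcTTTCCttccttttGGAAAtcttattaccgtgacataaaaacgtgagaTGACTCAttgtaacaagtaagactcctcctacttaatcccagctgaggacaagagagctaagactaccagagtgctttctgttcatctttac

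The Slamf1 window lies at chr1:171766882-171767181 on the plus strand, that of Slamf6 at chr1:171917212-171917511 on the plus strand and that of Slamf7 at chr1:171648950-171649249 on the minus strand, within the GENCODE span of its gene. Slamf7 held 1 AP-1 match, TGACTCA, starting 42 bases before the start site, and 3 GGAAA matches. Slamf1 held 1 GGAAA match and Slamf6 held neither motif. Of the other windows, Cd84 held 1 AP-1 match and 1 GGAAA match, and Cd48 held 1 GGAAA match. None of the 5 windows held TGACGTCA or TGACG in these letters. Over all 32544 windows of the same length, TGANTCA was present in 7.79%, GGAAA in 61.5%, TGACGTCA in 1.8% and TGACG in 20.9%. TGACGTCA contains TGACG, so that those counts overlap. A match describes the letters of the window and says nothing about binding.

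The libraries held 20156082 to 24331577 counts. The 12 T cell markers, Cd3e and Trac among them, were all counted in each group and summed to 2160 to 2220 CPM (counts scaled to a common library size) in WTATPgs libraries and 2350 to 2390 in WT libraries. The sums were 2260 to 2290 in ADO and 2140 to 2190 in DNT, and 2360 to 2550 in RA and 2330 to 3220 in R. Cd4 averaged at most 9.33 CPM and Cd8a at most 23.5 CPM in a group. Libraries of a group differed little in 4 groups (chi-square per degree of freedom 1.87 to 6.81), but WTATPgs replicate 3 stood apart from the other WTATPgs libraries (25.3 and 25.4, against 1.65 between those), and the 3 R libraries from each other (43.8 to 210). In R replicate 3, 14.6% of counts came from cytosolic ribosomal protein genes, against 9.11% and 11.2% in the other R libraries and 10.4% to 11.1% in RA libraries. In libraries of the first and second tables this share was 4.15% to 4.68%. Mitochondrially encoded genes made up 2.98% to 5.2% of counts in libraries of the third table and 1.54% to 2.03% in the others. Calls of members that rest on WTATPgs replicate 3 or R replicate 3 are given with and without them. In these bulk samples, fewer cells of a type and less RNA per cell cannot be told apart.

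Levels were compared between genes as CPM per kilobase of merged exons. Cd48 had the highest level per kilobase in all 6 groups, between 73.3 in DNT and 136 in R. Slamf7 came next in each group, at 32.9 in WTATPgs and 57.9 in WT, at 47.7 in ADO and 56.8 in DNT, and at 30.2 in RA and 36.7 in R. At the low end, Slamf6 had 0.182 CPM per kilobase in WTATPgs and 0.663 in ADO, its lowest and highest groups, and Sh2d1a had between 0.452 in WT and 3.85 in R. On this scale the SAP gene and Slamf6 did not differ beyond their spread in ADO or in WT, but their order depends on the length used. Per kilobase of the longest coding transcript, Sh2d1a had 3.71 CPM and Slamf6 1.26 CPM in ADO, and Sh2d1a had 2.04 CPM and Slamf6 0.866 CPM in WT. With that length Cd48 stayed first in all 6 groups. Slamf1 and Slamf7 changed places in WTATPgs, Cd84 and Ly9 in ADO, Sh2d1a and Ly9 in RA and R, and Sh2d1a and Slamf6 in WT.

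Slamf1 and Sh2d1a varied most across the study, by 13.5 and 8.51 times between their highest and lowest group means. For both genes the extreme groups were WT and R, neither of which had a ligand. Slamf1 averaged 13 ± 1.17 CPM in R, 29.1 ± 1.12 CPM in DNT and 175 ± 6.56 CPM in WT (SD, n = 3 each). Sh2d1a ran the other way, with 21.2 ± 8.47 CPM in R, 4.81 ± 0.659 CPM in DNT and 2.49 ± 0.215 CPM in WT. Table, inhibitor, the larger ribosomal and mitochondrial shares of the third table and any difference of culture cannot be told apart in these values. They are therefore a description without a test. The remaining members varied less, by 3.64 times for Slamf6, 2.16 for Ly9, 1.92 for Slamf7, 1.85 for Cd48 and 1.7 for Cd84.

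The orders below use CPM scaled within each table. Group means were also taken with scaling by library size alone and with TMM factors over all 18 libraries. Over both, 44 means moved by at least their SD and 40 by less, and the orders were not redone with them. In order of level, Slamf1 ran from WT through WTATPgs, DNT, ADO and RA down to R, each apart from the next by more than their SDs. Sh2d1a was highest in R and RA, then came DNT and ADO, then WTATPgs and WT, and within each of these pairs the groups did not differ beyond their spread. Slamf6 was highest in ADO and lowest in WTATPgs. Between them came WT, DNT, RA and R, where neighbours in order lay within their spread, but WT lay apart from R. For Slamf7, WT and DNT lay together at the top, ADO lay apart below them, and R, WTATPgs and RA followed. WTATPgs lay within the spread of R and of RA, but R lay apart from RA. For Ly9, DNT and ADO lay together, followed by WT and WTATPgs, each apart, and by R and RA together. Cd48 had R and RA above ADO, WT, WTATPgs and DNT. Neighbours in order inside each set lay within their spread, although ADO lay apart from DNT. Cd84 was highest in WT and lowest in DNT. From WT through R and WTATPgs to RA, neighbours in order did not differ beyond their spread, R being the most scattered. WT, at 138 ± 1.06 CPM, still lay apart from WTATPgs, at 94.7 ± 13.2 CPM, and from RA, at 94.5 ± 2.2 CPM.

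**Figure D1:**
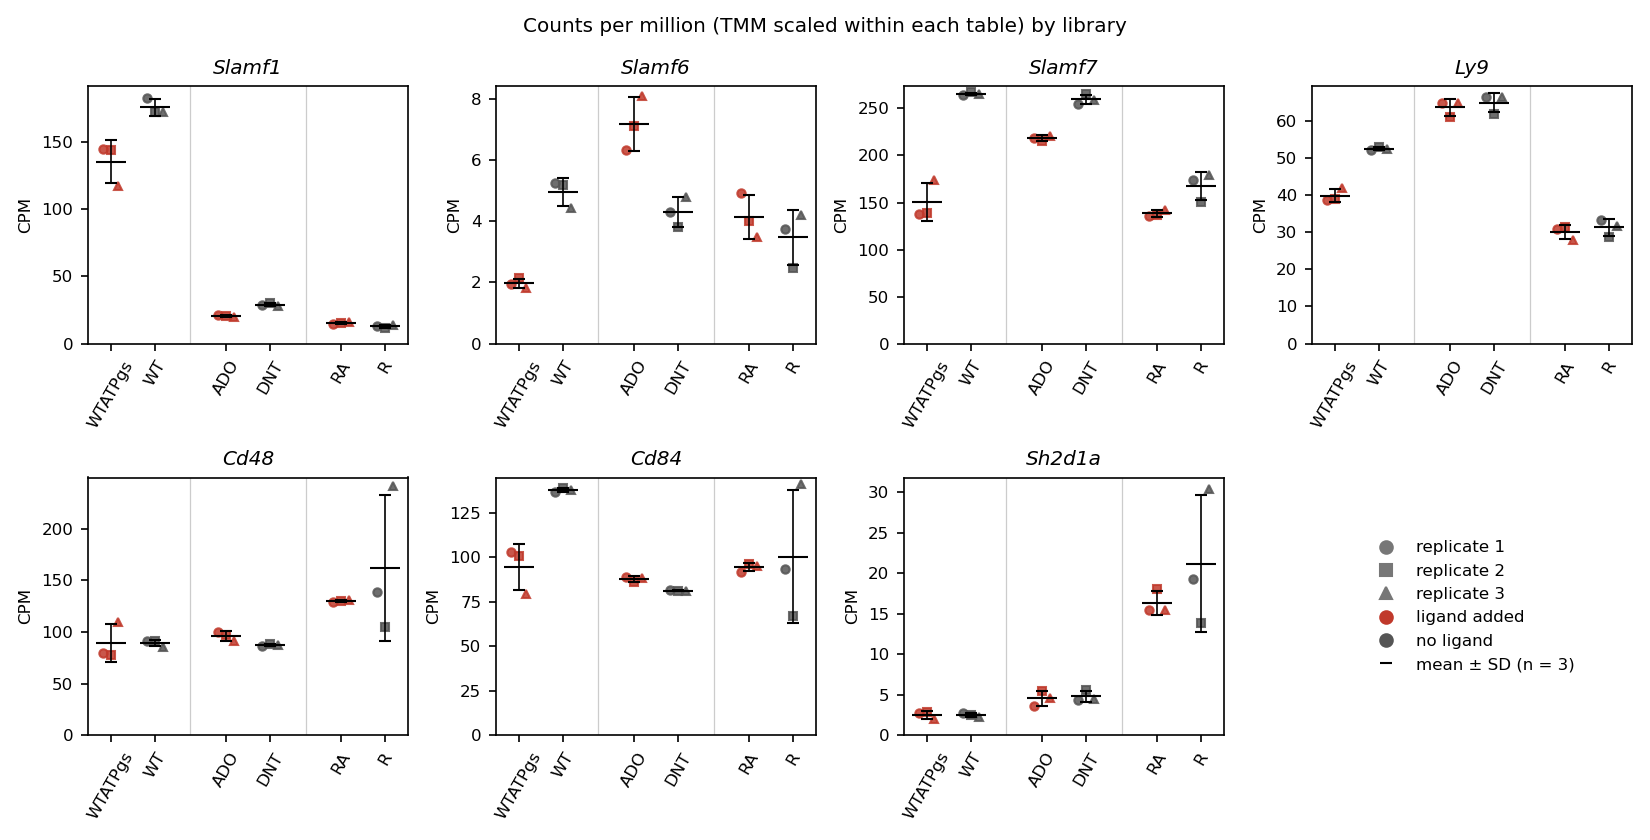
CPM of each member in every library (vertical axis, linear, scaled with TMM factors of each table), by group, with the ligand-treated group left of its control within each table and grey lines between tables. Points are libraries, the horizontal bar is the mean and the whiskers are the SD over 3 libraries. Slamf1 sits at 117 to 183 CPM in the first table and at 11.7 to 30.3 CPM in the others, while Sh2d1a sits highest in the third table, and the R libraries scatter widely for Cd48, Cd84 and Sh2d1a.

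**Figure D2:**
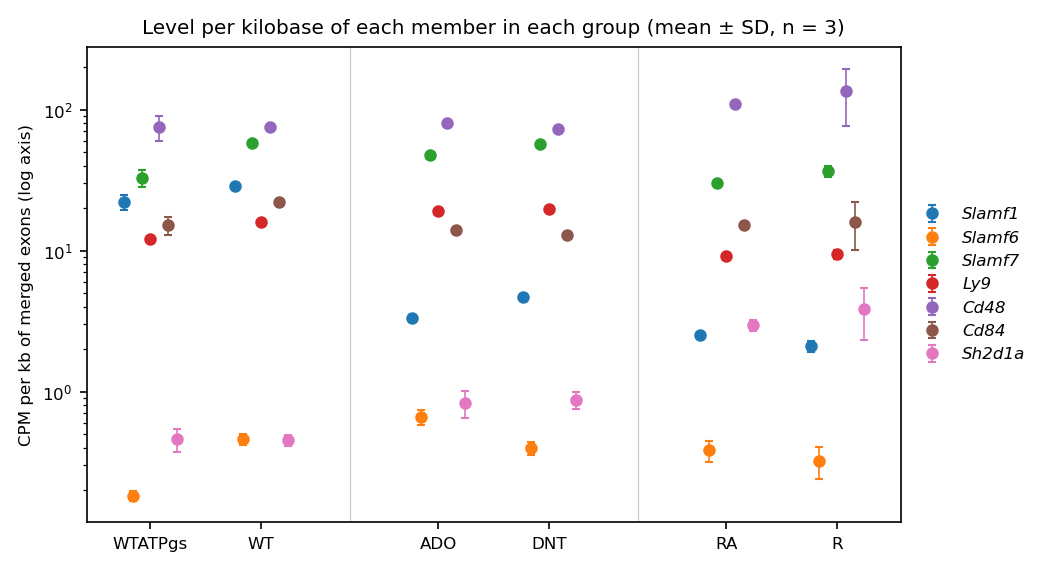
CPM per kilobase of merged exons (vertical log axis) for the 7 members in each of the 6 groups. Points are means and whiskers are SDs over 3 libraries. Cd48 and Slamf7 are the upper points in every group, and Slamf1 lies at 22.0 and 28.5 in WTATPgs and WT but at 2.11 to 4.72 in the other 4 groups.

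With ATPgs, 5 of the 6 receptor genes fell. Slamf6 fell most, to 0.398 times its WT level, Slamf7 to 0.568 times, Cd84 to 0.685 times, Ly9 to 0.759 times and Slamf1 to 0.772 times. Cd48 and Sh2d1a did not pass the test. Tests here and below are edgeR quasi-likelihood tests on counts, with p-values adjusted by Benjamini and Hochberg over all genes tested and a threshold of 0.05. Among all 15124 genes tested with ATPgs, 37.1% were called and 19.4% were called lower in WTATPgs, so calls were common in this comparison. The split was 2678 higher and 2934 lower, and with scaling by library size alone 3226 higher and 2331 lower, with the same 5 members called lower. The median log2 fold change was -0.40 over the 7 members and 0 over all genes.

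Slamf6, which in mouse T cells signals through SAP on contact with other lymphocytes, had 1.95, 2.14 and 1.83 CPM in WTATPgs libraries, against 5.26, 5.2 and 4.42 CPM in WT libraries. The groups lay apart, at a log2 fold change of -1.33 ± 0.16 (SE) and an adjusted p of 0.00036. Slamf7, which in mice signals mainly through the SAP relative EAT-2, had 138, 139 and 174 CPM in WTATPgs libraries and 264, 267 and 265 CPM in WT libraries. All WTATPgs values lay below all WT values, replicate 3 being the highest of them, and the log2 fold change was -0.82 ± 0.09 (adjusted p = 0.00048). Slamf7 shares 9.2% of its exon bases with the antisense gene Gm37787, and the sources used here do not say whether counting used strand. Gm37787 had 74 counts in this table, against 28162 for Slamf7.

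Cd84, a receptor that binds itself, had 103, 101 and 79.5 CPM in WTATPgs libraries, against 137, 139 and 138 CPM in WT libraries, a log2 fold change of -0.55 ± 0.10 (adjusted p = 0.00419). Ly9, also a receptor that binds itself, had 38.7, 38.9 and 41.8 CPM in WTATPgs libraries and 52.0, 52.9 and 52.5 CPM in WT libraries, at -0.40 ± 0.05 (adjusted p = 0.000425). Slamf1, which on activated T cells works as a co-receptor, had 145, 144 and 117 CPM in WTATPgs libraries and 183, 172 and 172 CPM in WT libraries, at -0.37 ± 0.08 (adjusted p = 0.0109). None of these 3 genes overlapped between the groups. In all, 5 of 7 members had groups apart, against 51.3% of all genes tested.

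Cd48, the ligand of CD244 and CD2, had 79.1, 77.8 and 110 CPM in WTATPgs libraries, against 90.9, 91.0 and 85.7 CPM in WT libraries. The third WTATPgs library lay above all WT libraries and the other WTATPgs libraries below them, and the fitted log2 fold change was 0 ± 0.14 (95% interval -0.35 to 0.34, adjusted p = 0.988). Without WTATPgs replicate 3, Cd48 was called lower, at -0.19 (adjusted p = 1.97e-05). Sh2d1a had 2.69, 2.88 and 1.99 CPM in WTATPgs libraries, from 62, 66 and 49 counts, and 2.72, 2.44 and 2.30 CPM in WT libraries. The groups overlapped, with a log2 fold change of 0.02 ± 0.20 and a 95% interval of -0.44 to 0.48. At this depth a change of the SAP gene within that interval was not detectable. Exons of Sh2d1a share 26.6% of their bases with the antisense gene Tenm1, which had at most 3 counts in a table.

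The 13 markers of myeloid cells, some of which also carry CD48, CD84 and SLAMF7, moved with ATPgs in the first table. All but Siglech were counted, and they summed to 196, 201 and 45.9 CPM in WTATPgs libraries and to 42.2 to 45.8 CPM in WT libraries. B cell markers, all 10 counted, summed to 104, 105 and 59.8 CPM in WTATPgs libraries and 61.0 to 65.4 CPM in WT libraries. WTATPgs replicate 3, the library that stood apart from the others of its group, had sums close to those of WT libraries. In it Slamf6, Slamf7, Cd84, Ly9 and Slamf1 each lay below all WT libraries. The 5 calls held when any of the 6 libraries was left out, with the highest adjusted p at 0.0432, for Slamf1. The part of myeloid and B cells in the result was not tested.

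With adenosine, receptor genes moved in both directions. Slamf6 rose to 1.67 times its DNT level, Cd48 to 1.1 times and Cd84 to 1.08 times, while Slamf1 fell to 0.708 times and Slamf7 to 0.84 times. Ly9 and Sh2d1a did not pass the test. This table had the least spread between replicates, and 50.2% of the 14512 genes tested were called (25.5% higher and 24.6% lower in ADO), so the share of members called has to be read against that. The member median was a log2 fold change of -0.03, against 0 over all genes. Groups did not overlap for 5 of 7 members and for 55.7% of all genes tested.

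Slamf6 had 6.34, 7.11 and 8.11 CPM in ADO libraries, against 4.31, 3.8 and 4.78 CPM in DNT libraries. Every ADO library lay above every DNT library, with a log2 fold change of 0.74 ± 0.13 (adjusted p = 7.25e-06). Slamf1 had 21.0, 20.7 and 20 CPM in ADO libraries and 28.6, 30.3 and 28.3 CPM in DNT libraries, at -0.50 ± 0.06 (adjusted p = 3.03e-09). Replicates of a group lay close together and the groups did not overlap. Slamf7 had 219, 215 and 221 CPM in ADO libraries, against 255, 265 and 259 CPM in DNT libraries, at -0.25 ± 0.02 (adjusted p = 1.35e-12).

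Cd48 had 99.7, 97.2 and 90.7 CPM in ADO libraries and 86.2, 88.4 and 86.9 CPM in DNT libraries, a log2 fold change of 0.14 ± 0.04 (adjusted p = 0.00138). Cd84 had 88.9, 85.9 and 88.6 CPM in ADO libraries, against 81.6, 81.2 and 81.0 CPM in DNT libraries, at 0.11 ± 0.04 (adjusted p = 0.00747). Both shifts were small and the groups did not overlap. The calls of Slamf7, Cd48 and Cd84 were lost in a fit of all 18 libraries, with adjusted p of 0.11, 0.742 and 0.753. That fit shared a gene's spread with the noisier tables and also set filter and scaling over all libraries. Which of these mattered was not tested. Myeloid markers, all but Siglech counted, summed to 18.5 to 22.7 CPM in ADO libraries and 12.2 to 14.3 CPM in DNT libraries. Cd68 averaged 13.5 ± 2.07 CPM in ADO and 8.31 ± 0.573 CPM in DNT (SD, n = 3 each). Cd14 averaged 2.37 ± 0.475 CPM in ADO and 0.389 ± 0.145 CPM in DNT. The means of Adgre1, Mpo, Fcgr1, Csf1r and Itgam were lower in ADO, and those of the other counted markers were higher. The part of myeloid cells in the rise of Cd48 and Cd84 was not tested.

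Ly9 overlapped, with 64.8, 61.0 and 64.9 CPM in ADO libraries and 66.3, 61.9 and 66.3 CPM in DNT libraries. Its log2 fold change was -0.03 ± 0.04, with a 95% interval of -0.11 to 0.05. Sh2d1a had 3.55, 5.49 and 4.58 CPM in ADO libraries, against 4.39, 5.57 and 4.46 CPM in DNT libraries. These also overlapped, at -0.08 ± 0.15 (95% interval -0.38 to 0.23, adjusted p = 0.699).

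With the A2aR inhibitor present, no member was called between RA and R. edgeR called 1.14% of the 12873 genes tested, and no member had an unadjusted p under 0.05, the smallest being 0.0999 for Slamf7. DESeq2 called no member either, nor did any other setting tried. Member values had a median log2 fold change of -0.09, against -0.04 over all genes. The spread was much larger than in the tables without inhibitor, with a common biological coefficient of variation of 19.6%, against 2.74% for ADO and DNT and 10.6% for WTATPgs and WT. The misses therefore do not show that the groups were alike.

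Slamf1 had 14.6, 15.6 and 15.9 CPM in RA libraries, against 13.3, 11.7 and 13.9 CPM in R libraries. All RA values lay above all R values, but the log2 fold change of 0.25 ± 0.16 did not pass (95% interval -0.12 to 0.61, adjusted p = 0.632). Slamf7 had 136, 137 and 142 CPM in RA libraries and 174, 151 and 179 CPM in R libraries. It was the only other member whose groups did not overlap, at -0.28 ± 0.15 (95% interval -0.62 to 0.06, adjusted p = 0.525). Groups apart were found for 20.8% of all genes tested in this table.

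Slamf6 had 4.92, 4.02 and 3.49 CPM in RA libraries, against 3.76, 2.47 and 4.19 CPM in R libraries, a log2 fold change of 0.26 ± 0.25. Ly9 had 30.9, 31.3 and 27.9 CPM in RA libraries and 33.4, 28.7 and 31.7 CPM in R libraries, at -0.06 ± 0.15. Both genes overlapped between the groups.

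R replicates 2 and 3 set much of what was seen for the other members. Cd48 had 129, 130 and 131 CPM in RA libraries, against 139, 105 and 241 CPM in R libraries. Cd84 had 92.0, 96.3 and 95.2 CPM in RA libraries and 93.5, 66.9 and 141 CPM in R libraries. The RA libraries lay within a few CPM of each other for both genes, whereas R replicate 3 was the highest R library and R replicate 2 the lowest. The log2 fold changes were -0.31 ± 0.27 for Cd48 and -0.09 ± 0.25 for Cd84, and without R replicate 3 they were 0.09 and 0.24, still not called. Sh2d1a had 15.5, 18 and 15.5 CPM in RA libraries, against 19.3, 13.8 and 30.4 CPM in R libraries, at -0.37 ± 0.27 (95% interval -0.97 to 0.22, adjusted p = 0.672), and at -0.02 without R replicate 3. Without R replicate 2 the values were -0.56 for Cd48, -0.32 for Cd84 and -0.62 for Sh2d1a, none of them called. In R replicate 3, mitochondrially encoded genes summed to 63800 CPM, against 35200 and 27700 CPM in the other R libraries and 32700 to 35800 CPM in RA libraries, and the part of RNA quality in these values was not tested.

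**Figure D3:**
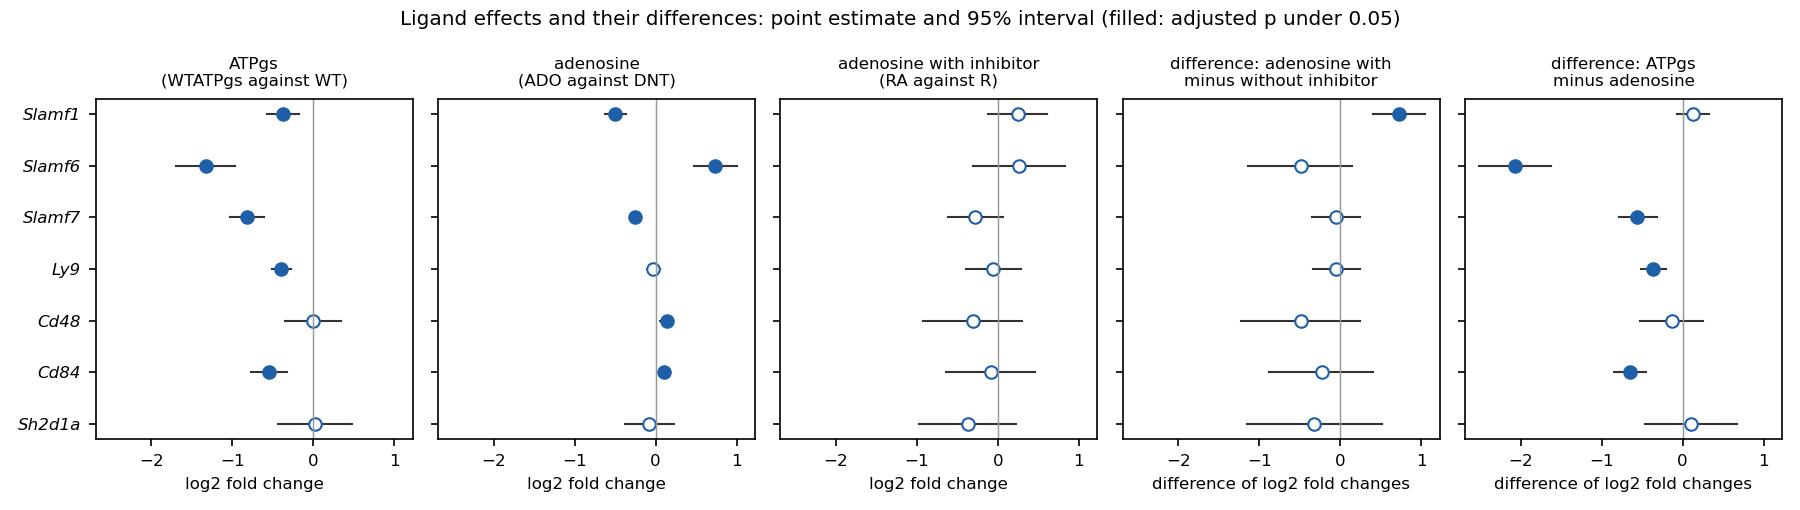
Log2 fold change of each member for the 3 ligand comparisons and the difference of log2 fold changes for the 2 contrasts between them (horizontal axes). Points are edgeR estimates, lines are 95% intervals, and filled points have an adjusted p under 0.05. Slamf6 lies at -1.33 with ATPgs and 0.74 with adenosine, and Slamf1 is the filled point in the contrast of adenosine with and without inhibitor, at 0.73.

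Whether the effects differed between tables was tested directly, in fits of 12 libraries. The effect of ATPgs minus that of adenosine was called for 4 of 7 members, all with a negative difference, where 17.3% of 15788 genes tested were called, 8.13% as higher and 9.12% as lower. For Slamf6 the difference of log2 fold changes was -2.07 ± 0.21 (adjusted p = 5.6e-06), the receptor falling with ATPgs and rising with adenosine. Cd84 differed by -0.65 ± 0.09 (adjusted p = 0.000303), Slamf7 by -0.56 ± 0.11 (adjusted p = 0.00482) and Ly9 by -0.36 ± 0.07 (adjusted p = 0.00201). The calls of Ly9 and Cd84 were lost when all 18 libraries shared a fit (adjusted p of 0.11 and 0.225).

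For Slamf1, which fell with both ligands, the difference was 0.13 ± 0.09, with a 95% interval of -0.07 to 0.33. Cd48 differed by -0.13 ± 0.17 and Sh2d1a by 0.10 ± 0.27, neither called. Without WTATPgs replicate 3, Slamf1 was called at 0.21 (adjusted p = 0.00614) and Cd48 at -0.33 (adjusted p = 6.85e-07). The 2 ligands stand in different tables, and the labels do not say whether the cultures differed too. Ligand, table and any difference of culture cannot be told apart in these contrasts.

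The effect of adenosine with inhibitor minus that without it was called for Slamf1 alone of the 7, at 0.73 ± 0.15 (95% interval 0.40 to 1.05, adjusted p = 0.0172). Of 14965 genes tested 4.05% were called, 0.909% as higher and 3.14% as lower. The Slamf1 estimate ran between 0.69 and 0.85 over 12 fits that each left out 1 library, and in 6 of them (without RA replicate 2 or 3, DNT replicate 1 or 2, or ADO replicate 2 or 3) the call was lost, with adjusted p up to 0.0618. It was also lost with a replicate block (adjusted p = 0.0898). Slamf6 differed by -0.49 ± 0.30 (95% interval -1.14 to 0.15) and Cd48 by -0.49 ± 0.34 (95% interval -1.22 to 0.24). Slamf7 and Ly9 each differed by -0.05 ± 0.14, Cd84 by -0.23 ± 0.30 and Sh2d1a by -0.32 ± 0.38.

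Of the 6 other genes of the family, Cd244a, the receptor for CD48, Cd2, a second receptor for it, and Sh2d1b1 and Sh2d1b2, which encode the EAT-2 adaptors of mice, were tested in every table. Slamf8 passed the filter on low counts only beside ATPgs, with 15, 16 and 7 counts in WTATPgs and 3, 8 and 12 in WT, and Slamf9 had at most 6 counts in a library. None of the 5 genes tested with ATPgs was called by edgeR, DESeq2 or limma-voom, and 1 had an unadjusted p under 0.05. That gene was Sh2d1b2 (adjusted p = 0.0673), which had 2.77, 3.27 and 1.22 CPM in WTATPgs libraries and 1.11, 1.52 and 0.973 CPM in WT libraries. Without WTATPgs replicate 3, 3 of them were called.

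Adenosine raised Cd2 and lowered Cd244a. Cd2 had 136, 138 and 138 CPM in ADO libraries, against 88.7, 87.3 and 90.8 CPM in DNT libraries. The groups were far apart relative to their spread, with a log2 fold change of 0.63 ± 0.03 (adjusted p = 1.08e-22). Cd244a had 91.5, 88.3 and 88.4 CPM in ADO libraries and 95.2, 100 and 97.9 CPM in DNT libraries, at -0.13 ± 0.03 (adjusted p = 0.00164), a call lost in the fit of all 18 libraries. With ATPgs, Cd2 was at -0.15 (adjusted p = 0.127), and the difference from adenosine was -0.77 ± 0.08 (adjusted p = 6.51e-06), a call also lost in that fit (adjusted p = 0.0524).

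Of the EAT-2 genes, Sh2d1b2 fell in RA against R. It had 1.83, 1.88 and 1.64 CPM in RA libraries, against 13.8, 11.4 and 10.8 CPM in R libraries. It averaged 1.71 ± 0.152 CPM in ADO and 1.77 ± 0.352 CPM in DNT (SD, n = 3 each), so that the R libraries alone stood high. Its log2 fold change was -2.75 ± 0.20 (adjusted p = 0.000346), and the difference from adenosine without inhibitor was -2.70 ± 0.25 (adjusted p = 5.79e-05), called in all 21 alternative fits.

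Sh2d1b1 had 29.1, 28.0 and 26.7 CPM in RA libraries and 54.2, 38.2 and 57.4 CPM in R libraries. RA lay below R in every library, at -0.84 ± 0.19, which did not pass (adjusted p = 0.0705). It was called without R replicate 3 (-0.72, adjusted p = 0.00684), without R replicate 2 (-1.01), by DESeq2, with no filter on low counts and in the fit of all 18 libraries. Its difference from adenosine without inhibitor was called at -0.82 ± 0.20 (adjusted p = 0.0423) and lost in 14 of 21 alternative fits. The genes are close copies of each other, so how the counting divided reads between them is uncertain. Natural killer cells also use EAT-2. Their 6 markers were all counted and summed to 295 to 307 CPM in RA libraries and 308 to 379 CPM in R libraries. Ncr1 had 0.515, 0.655 and 0.689 CPM in RA libraries, against 5.17, 3.57 and 5.61 CPM in R libraries, and Fcgr3 averaged 5.81 ± 0.504 CPM in RA and 17.8 ± 0.586 CPM in R (SD, n = 3 each). In 3 others the RA mean lay within the spread of R, with Klrk1 at 80.3 ± 3.15 CPM in RA and 74.7 ± 46.2 CPM in R, Klrb1c at 17.8 ± 1.88 CPM in RA and 19.8 ± 7.25 CPM in R, and Eomes at 195 ± 7.11 CPM in RA and 222 ± 76.3 CPM in R. Klra8 averaged 0.165 ± 0.0601 CPM in RA and 0.375 ± 0.146 CPM in R. The part of such cells in the EAT-2 values was not tested.

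**Figure D4:**
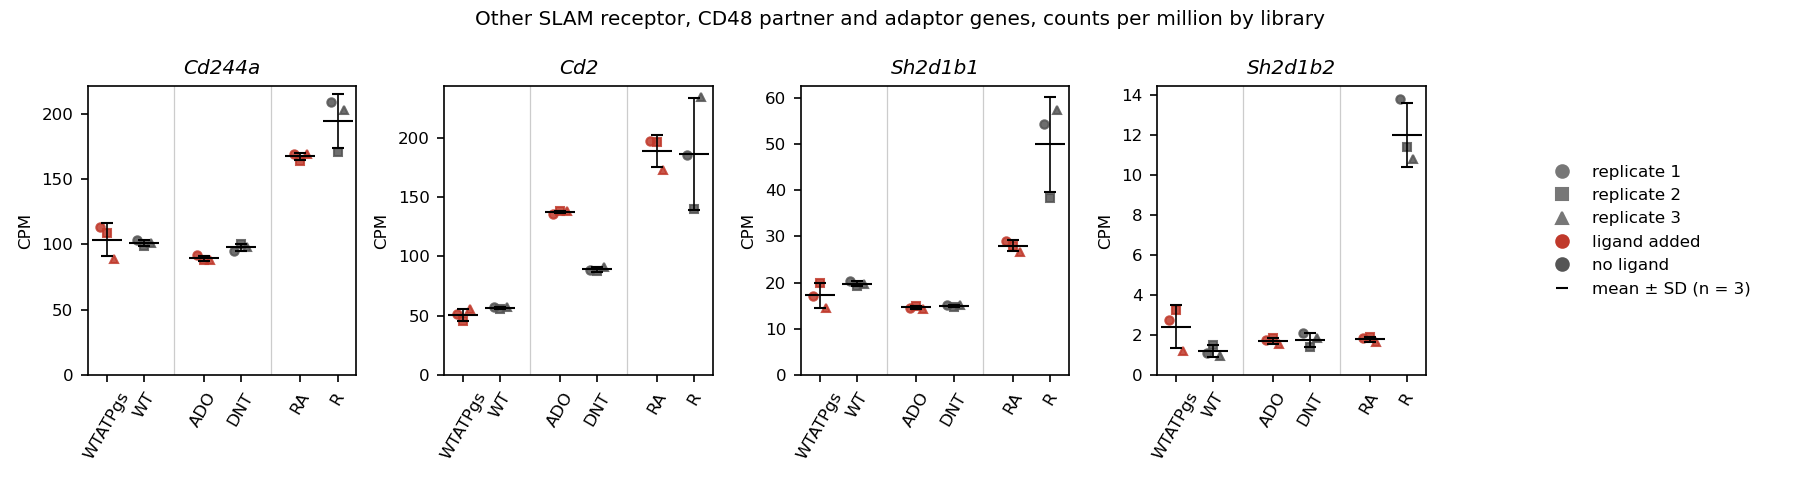
CPM of Cd244a, Cd2, Sh2d1b1 and Sh2d1b2 in every library (vertical axis, linear), by group, with the ligand-treated group left of its control within each table. Points are libraries, bars are means and whiskers SDs over 3 libraries. Cd2 lies at 136 to 138 CPM in ADO and 87.3 to 90.8 CPM in DNT, and Sh2d1b2 at 1.64 to 1.88 CPM in RA and 10.8 to 13.8 CPM in R.

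Kinases, phosphatases and adaptors reported to act behind SLAM receptors formed a list of 27 genes, all tested in each table. With ATPgs 3 rose and 10 fell, where 37.1% of all genes tested were called (median log2 fold change -0.12, against 0 over all genes), and with adenosine 5 rose and 14 fell, where 50.2% were called (median -0.07, against 0). Without WTATPgs replicate 1, 8 genes of the list were called with ATPgs. Fyn, the kinase that SAP recruits, had 257, 254 and 247 CPM in WTATPgs libraries, against 399, 389 and 384 CPM in WT libraries, a log2 fold change of -0.63 ± 0.03 (adjusted p = 6.41e-06). It also fell with adenosine, to 262, 250 and 247 CPM in ADO libraries, against 326, 316 and 302 CPM in DNT libraries, at -0.32 ± 0.03 (adjusted p = 1.02e-13). The fall was larger with ATPgs, by a difference of -0.31 ± 0.05 (adjusted p = 0.000359).

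Other members of this list moved with both ligands. Lcp2, encoding the adaptor SLP-76, fell by 0.49 on the log2 scale with ATPgs and by 0.50 with adenosine. Sh3bp2, encoding the adaptor 3BP2, fell by 0.75 with ATPgs and by 0.97 with adenosine. Pik3r1, a regulatory subunit of phosphoinositide 3-kinase, rose by 0.67 with ATPgs and 0.44 with adenosine. Inpp5d, whose product SHIP-1 is one of the phosphatases that can occupy SLAM receptor tails, rose by 0.50 and 0.21. With the inhibitor present, edgeR called none of the 27 between RA and R, although Ptpn6, Sh3bp2, Dok1 and Plcg1 came nearest, with adjusted p from 0.147 to 0.558. Of the list, 3 genes had an unadjusted p under 0.05. DESeq2 called 1 gene of the list and limma-voom 0, and leaving out R replicate 3 gave 5 calls.

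A list of 17 genes of helper, follicular and innate-like T cells tied to SAP had 3 rises and 5 falls with ATPgs (median log2 fold change 0.04), and 4 rises and 10 falls with adenosine (median -0.28), against medians of 0 over all genes. The shares called over all genes tested were again 37.1% with ATPgs and 50.2% with adenosine. Icos, a co-stimulatory receptor of follicular helper T cells, had 365, 368 and 386 CPM in WTATPgs libraries, against 132, 131 and 133 CPM in WT libraries, at 1.5 ± 0.04 (adjusted p = 9.07e-08). It had 88.5, 82.2 and 84.0 CPM in ADO libraries and 31.7, 31.9 and 38.2 CPM in DNT libraries, at 1.32 ± 0.05 (adjusted p = 6.13e-19). Both ligands lowered Egr2, a transcription factor gene tied to natural killer T cells, by 1.14 with ATPgs and 1.03 with adenosine on the log2 scale.

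Ifng, encoding interferon gamma, fell by 1.34 with ATPgs and by 1.32 with adenosine. Il21, a cytokine gene of follicular helper cells, rose by 0.49 with ATPgs, to 49.2 ± 2.29 CPM in WTATPgs against 35.0 ± 0.869 CPM in WT, and stood near 2 CPM in ADO and DNT. Pdcd1, encoding PD-1, rose by 0.68 with adenosine, and Eomes, a transcription factor gene of cytotoxic T cells, fell by 0.39, a call lost in the fit of all 18 libraries (adjusted p = 0.0835). Without WTATPgs replicate 3, 14 of the 17 genes were called with ATPgs. Between RA and R none of the 17 was called by edgeR, the nearest being Icos at 0.74 ± 0.16 (unadjusted p = 0.000864, adjusted p = 0.0608), which DESeq2 called. Of these genes 4 had an unadjusted p under 0.05, and limma-voom called 0. Without R replicate 3, Icos at 0.78 (adjusted p = 0.00155) and Egr2 at -0.90 (adjusted p = 0.00179) were called.

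Genes within 200 kb around the receptor cluster were set beside it. Of 14 such neighbours 11 were tested with ATPgs, and 1 rose while none fell, where 37.1% of all genes tested were called. That gene was Usf1, encoding a widely expressed transcription factor, at 0.47 ± 0.07 (adjusted p = 0.000734). With adenosine 5 of 11 rose and 1, Cd244a, fell, where 50.2% of all genes tested were called. The rises were Usf1 at 0.41, F11r, a cell adhesion molecule of junctions and leukocytes, at 0.87 ± 0.29, Gm10521 at 0.32, Pex19, which serves peroxisome assembly, at 0.26, and Ncstn, a subunit of gamma-secretase, at 0.09. The call of F11r was lost without ADO replicate 3 or DNT replicate 3, that of Gm10521 without ADO replicate 3 or DNT replicate 1, and that of Ncstn without ADO replicate 1. The fit of all 18 libraries lost these 3 and Pex19. Between RA and R 10 neighbours were tested, with adjusted p from 0.197 for Gm10521 to 0.985 for Arhgap30.

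**Figure D5:**
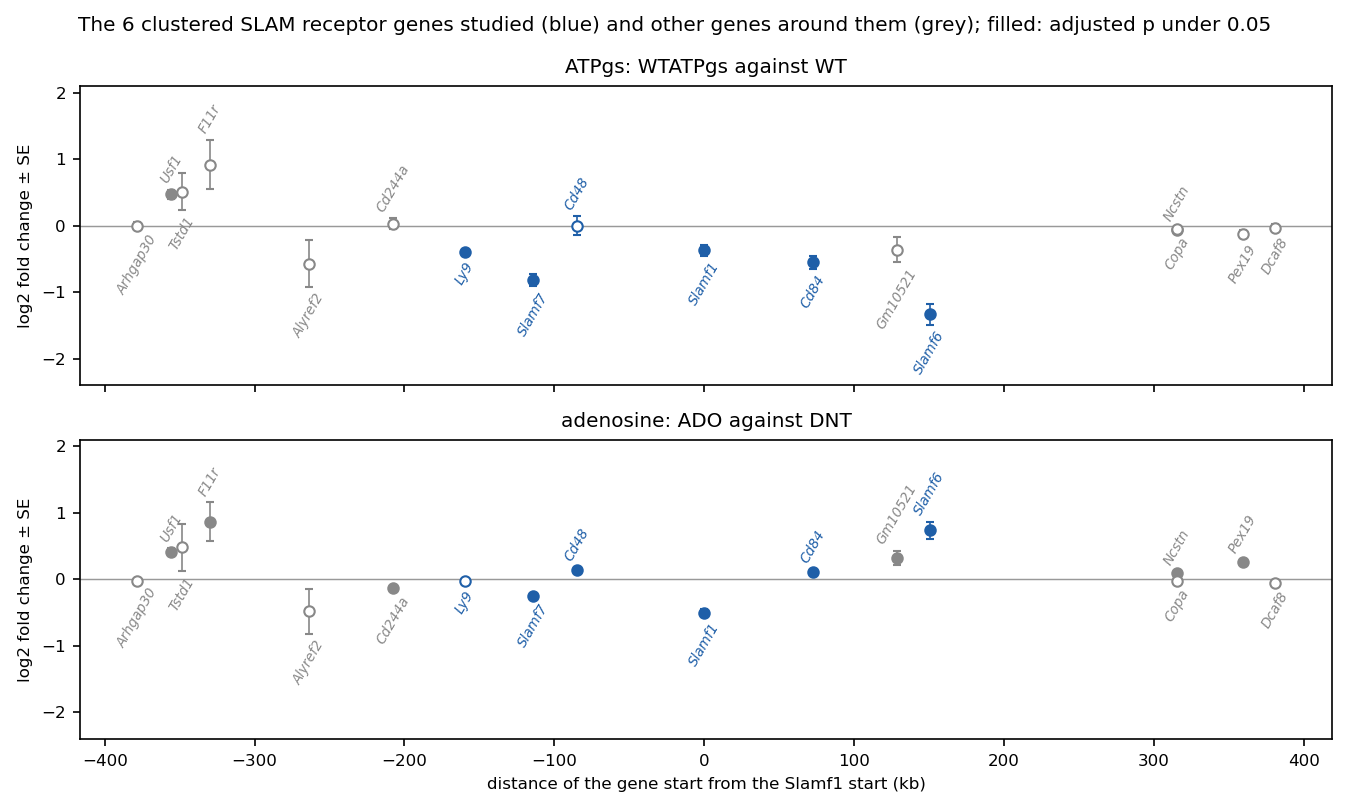
Log2 fold change (vertical axis, whiskers are SEs) of the 6 clustered receptors and of neighbouring genes against the distance of their start from the Slamf1 start in kilobases, for ATPgs (upper panel) and adenosine (lower panel). Filled points have an adjusted p under 0.05. With ATPgs the filled receptor points lie at -0.37 to -1.33 and the filled neighbour Usf1 at 0.47, and with adenosine the receptors spread from -0.50 to 0.74.

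Genes whose log2 CPM followed a member most closely over the 18 libraries, after the mean of each table was removed, were sought among 9906 genes with at least 5 CPM in a group. These are descriptions over libraries that share ligands and tables. Slamf1 was followed by Calcrl and Ddx46 (Pearson r of 0.94 each), and Slamf7 by Nop16, Pus7 and Tagap (0.97 each). Cd84 was nearest to Fas (0.97) and Tespa1 (0.96), Cd48 to Chmp5 and Fam162a (0.96 each), and Ly9 to Slc25a26 (0.93). For Slamf6 and Sh2d1a the nearest genes were Neto2 and Nt5c3, at 0.86 each.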

How the data were processed

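RNA was sequenced from 18 libraries in 6 groups of 3. The values are counts of reads per Ensembl gene, deposited by the authors as 3 tables of whole numbers. Per the submitters' processing notes, HISAT2 2.1.0 was the aligner and GRCm38 the build. The sources used here name neither the counting tool nor its annotation or strand setting. GENCODE M21 gave symbols and spans for 99.7% of the IDs in the first table and 99.8% in the others.

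Counts were tested in R 4.3.3 with edgeR 4.0.16 (filterByExpr by group, TMM factors, quasi-likelihood test with robust=TRUE, two-sided, Benjamini-Hochberg adjustment over all genes tested, threshold 0.05), each ligand in a fit of its own 6 libraries. Differences between effects were contrasts in fits of 12 libraries, with 1 dispersion per gene for both tables. SEs are the log2 fold change divided by the square root of F. CPM used TMM factors of each table. The steps were tested on simulated data with 1 dispersion per gene in all libraries of a comparison. Such data do not cover tables of unequal spread, as in the fits of 12 libraries. Alternatives were DESeq2 1.42.0, limma-voom (limma 3.58.1), other scalings and filters, all 18 libraries in 1 fit, a replicate block and leaving out each library.

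The members and lists were chosen with earlier results of these data known, so counts over them are no independent support. Other genes named were all 6 other SLAM genes, the 4 genes of smallest p in each other list and comparison, neighbours that passed the threshold, and the 3 genes most like each member. Genes carried over from 1 comparison to another, and markers, were named after their values were seen. A result of 1 gene that this rule names is not reported here.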

Additional observations from a re-analysis of the deposited data

Results flagged for a closer look

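The results below are differences between effects in 2 tables whose test passed. Of the effect of ATPgs minus that of adenosine, Slamf6 was at -2.07, Cd84 at -0.65, Slamf7 at -0.56, Ly9 at -0.36 and Cd2 at -0.77 on the log2 scale. Slamf6 was called lower in WTATPgs than in WT and higher in ADO than in DNT. Of the effect of adenosine with the A2aR inhibitor minus that without it, Slamf1 was at 0.73, Sh2d1b2 at -2.7 and Sh2d1b1 at -0.82. Table and any difference of culture cannot be told apart from the ligand or inhibitor in any of the 8 differences.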

How the results depend on the processing

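The ATPgs calls of Slamf1, Slamf6, Slamf7, Ly9 and Cd84 and the adenosine calls of Slamf1 and Slamf6 kept their direction and their side of the threshold under all 14 alternatives each, as did Slamf6 and Slamf7 in the contrast of the ligands under 21. Where values changed, the cause was not tested. Depth limits Sh2d1a, Slamf6 and Sh2d1b2, which have few counts, and the spread of the R libraries limits every statement on RA against R. Library size scaling moved the median log2 fold change of all genes from -0.036 to 0.093 in RA against R.

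The fit of all 18 libraries called 1498 genes lower with ATPgs, 1439 higher and 870 lower with adenosine, 885 and 893 in RA against R, 391 higher in the inhibitor contrast, and 157 and 145 in the ligand contrast. It called 2 members with adenosine and 2 in the ligand contrast. Of other SLAM genes it called 1 with ATPgs, 1 with adenosine and 2 in RA against R, of the kinase and adaptor list 7, 6 and 3, and of the SAP-tied list 7 with adenosine and 4 in RA against R. DESeq2 called 181 genes higher and 352 lower in RA against R, with 2, 1 and 1 in the 3 lists, and 539 and 848 in the inhibitor contrast. Without a filter on low counts, RA against R had 156 and 329 calls and 2 each of other SLAM and SAP-tied genes, and ATPgs 1 other SLAM gene. By library size, 48 genes were lower in RA against R, and 72 and 168 were called in the inhibitor contrast.

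The labels do not say whether replicate numbers pair the samples. Same-numbered libraries had deviations from their group means that correlated at 0.05 at most, which cannot decide it with 3 libraries in a group. With a replicate block the inhibitor contrast had 19 genes higher, 141 lower and 0 members (Slamf1 at an adjusted p of 0.0898), and ATPgs 1 other SLAM gene. In no table did every library correlate best with its own number.

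Leaving out 1 library gave 1778 to 4186 genes higher and 2080 to 4195 lower with ATPgs, 5 to 725 and 31 to 994 in RA against R, 44 to 1633 and 230 to 1418 in the inhibitor contrast, and 913 to 2309 and 1030 to 3058 in the ligand contrast. Members called were 5 to 6 with ATPgs, 0 to 1 in the inhibitor contrast and 4 to 6 in the ligand contrast. List calls with ATPgs were 0 to 3 of other SLAM genes, 8 to 17 of the kinase list and 6 to 14 of the SAP-tied list, and in RA against R 1 to 2, 0 to 5 and 0 to 2.

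Sign changes were seen only for values that were not called. For ATPgs, Cd48 was at 0 with DESeq2 and RLE factors, 0.05 by library size, 0.01 with a filter of 1 CPM and -0.19 to 0.10 with 1 library left out, Sh2d1a at 0 with limma-voom and -0.08 to 0.16, and Cd244a at -0.02 to 0.13. For adenosine, library size gave 0.02 for Ly9 and 0 for Sh2d1b1, and leaving out 1 library -0.24 to 0.07 for Sh2d1a and -0.20 to 0.08 for Sh2d1b2. In RA against R, library size gave 0.07 for Ly9 and 0.09 for Cd84, and leaving out 1 library -0.56 to 0.09 for Cd48, -0.32 to 0.24 for Cd84 and -0.16 to 0.21 for Cd2. In the inhibitor contrast, library size gave 0.06 for Slamf7, 0.05 for Ly9 and 0 for Cd244a, and leaving out 1 library -0.06 to 0.07 for Slamf7, -0.08 to 0.03 for Ly9, -0.64 to 0.01 for Cd48, -0.38 to 0.17 for Cd84 and -0.49 to 0.11 for Sh2d1a. In the ligand contrast Sh2d1a ran from -0.05 to 0.26.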
